A study of Homo sapiens with 2 samples.

Results

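RNA polymerase I transcribes the ribosomal RNA genes in the nucleolus, and the 8 genes described here encode parts of that machinery: the subunits POLR1A, POLR1B, POLR1C, POLR1D and POLR1E, the initiation factor RRN3, the architectural factor UBTF and the nucleolar phosphoprotein TCOF1. MYC binding at their start sites was read from ChIP-seq of TET21 cells (SH-EP/TET21/N), human neuroblastoma cells cloned from SH-EP, in which doxycycline represses a MYCN transgene. The cells expressed wild-type MYC from an introduced construct and were held in 1 µg/mL doxycycline for 7 days before fixation in 1% formaldehyde for 10 min. The series has 1 ChIP library, made with 2 µg of an in-house rabbit polyclonal antibody against MYC labelled N-262, and 1 input library of the same cells, so the values have no replicate error. Whether the antibody tells introduced from endogenous MYC is not labelled, and a peak list holds no expression values with which to check the cell line's identity. A peak was counted for a gene when its summit lay within 5 kb of that gene's given GRCh37 start site, which selected 13 of the 17659 peaks that the authors called. All 8 genes had at least 1 peak.

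As a partner of MAX, the transcription factor MYC prefers E-box sequences, above all CACGTG. It is known as a driver of ribosome production, which it raises both at the ribosomal DNA and through genes of the polymerase machinery. In this machinery UBTF opens the ribosomal DNA promoter, RRN3 joins the polymerase to the promoter-bound selectivity factor, and the subunits form the enzyme itself.

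The promoter letters of these genes are shown before the peaks. RefSeq promoter windows on GRCh38.p14, each from 250 bases before to 50 bases after an annotated start, were at hand for 6 of the 8 genes (10 windows, since UBTF, POLR1B, POLR1D and RRN3 have 2 starts each). POLR1E and TCOF1 had no entry. None of the 6 genes held the canonical CACGTG, which 8.77% of the 27305 genes in the table hold in at least 1 window. The related E-box CACGCG, or CGCGTG on the opposite strand, was in 5 of the 6 (UBTF, POLR1A, POLR1C, POLR1D and RRN3), against 13.5% of all genes and 16.6% of the genes with a window at least as rich in G and C as the poorest of these (44.7%). That poorest window is of POLR1A, and those of the other genes held 60% to 79%, so the limit matches G and C only loosely. A gene with 2 windows also has more room for a match. By window it was in 6 of 10, with the 2 overlapping RRN3 windows holding the same matches, against 11.4% of all windows. POLR1B, the gene with the highest MYC fold below, held neither. These are matches of letters in a fixed window: they do not mark sites of binding, and the windows were not joined to the GRCh37 peaks. Whether the starts listed by RefSeq are the given GRCh37 start sites was not tested.

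The stretches below carry these matches, 5′ to 3′ on the strand of the gene, with CACGCG or CGCGTG in capitals (for POLR1B, the only CANNTG of its stretch). For RRN3 (chr16:15094336-15094585, minus strand) and POLR1B (chr2:112541786-112542035, plus strand) these are the 250 bases before the outermost annotated start. For POLR1C (chr6:43516927-43517088, plus strand) they are the 162 bases between its start and that of YIPF3 on the other strand. For UBTF (chr17:44220880-44220909, minus strand), POLR1A (chr2:86105854-86105883, minus strand) and POLR1D (chr13:27621716-27621745, plus strand) they are 30 bases around the match. All are from RefSeq on GRCh38.p14.
RRN3: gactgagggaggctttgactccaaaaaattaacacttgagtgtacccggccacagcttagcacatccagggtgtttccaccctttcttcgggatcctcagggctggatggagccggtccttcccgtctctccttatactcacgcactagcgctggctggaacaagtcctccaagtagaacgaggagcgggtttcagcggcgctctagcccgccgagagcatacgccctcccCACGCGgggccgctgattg
POLR1C: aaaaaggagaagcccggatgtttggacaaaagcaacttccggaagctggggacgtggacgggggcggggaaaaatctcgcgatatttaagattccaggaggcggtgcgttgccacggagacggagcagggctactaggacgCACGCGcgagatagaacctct
UBTF: ggcggagcgcggCGCGTGgggctcgccatt
POLR1A: cgcacgttgaatCGCGTGgtgactccgggc
POLR1D: cgcgagtggcctCGCGTGgtcgcccaggtg
POLR1B: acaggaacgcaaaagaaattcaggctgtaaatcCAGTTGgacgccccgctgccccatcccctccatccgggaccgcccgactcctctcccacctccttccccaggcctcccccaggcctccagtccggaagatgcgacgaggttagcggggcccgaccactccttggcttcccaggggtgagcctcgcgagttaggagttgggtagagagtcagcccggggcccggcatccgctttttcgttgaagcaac

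The CACGCG matches lay close to the annotated start in 4 genes. Only the fixed window around each start was searched, so any match found is near a start by construction. Where the CACGCG matches of all genes lie within their windows was not computed, so these positions have no comparison. Counting the base before the start as -1 and the start itself as 1, the first base of the match was at -15 in UBTF, -21 in POLR1C, -19 and 18 around the outer start of RRN3, and 16 in POLR1A. In POLR1D it was at -164 before the inner of its starts. The CANNTG of the POLR1B stretch, CAGTTG, began at -217. Of the other letters searched on both strands, CGGAAG, the core of ETS factor motifs, was in 5 of the 6 genes (22.6% of all genes), and the GC box GGGCGG in 4 (48.3%), with 7 matches, some overlapping, in the outer UBTF window. CCAAT was in 2 (39.7%), CANNTG, which includes CACGTG, in 3 (73.1%), and CATGCG (8.47%) and TATAAA (14%) in none. Among 20 other genes of RNA polymerase I transcription and nucleolar function, 19 had windows: 4 of these held CACGTG (POLR1G, NOP14, DDX21 and FBL) and 6 held CACGCG. Peaks at these other genes were not analysed here, since no GRCh37 start sites were used for them.

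MYC peaks lay over or near every start site of the set. The start site was inside a peak in 6 of the 8 genes (POLR1A, POLR1B, POLR1C, POLR1E, RRN3 and TCOF1), while peaks cover 0.161% of the positions spanned on chromosomes 1 to 22 and X. A summit within 5 kb was found for 8 of 8, and 4.63% of the same positions lie that close to a summit. This share of all positions is not the share of all gene starts, which would need a GRCh37 annotation and was not computed. On chromosome 17, which carries UBTF, the share was 10.4%, and on the other 6 chromosomes concerned it ran from 3.16% to 6.31%. A summit within 1 kb was found for 7 of 8, against 1.04% of positions on chromosomes 1 to 22 and X, and the exception was POLR1D. The distance limit had little to decide: the outermost peak inside it was that of UBTF at 3134 bp, and the nearest outside it, also near UBTF, was at 10974 bp with a fold of 8.0.

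**Figure D1:**
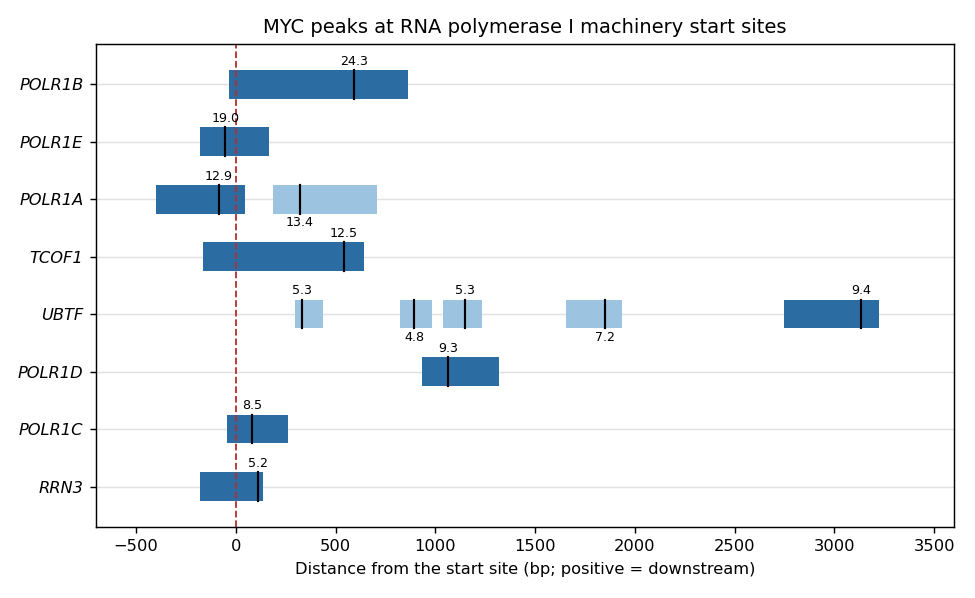
Each bar is a MYC peak drawn from edge to edge along the distance from the gene's GRCh37 start site in bp (positive is downstream, dashed line at 0), with a black tick at the summit and the fold printed beside it; the darker bar is the gene's strongest peak by p-value. Of the 13 summits, 11 lie downstream of the start, and UBTF alone has 5 peaks, all downstream.

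The 8 genes differed in the height of their strongest peak, taken as the peak with the highest −log10 p. The fold is the authors' deposited enrichment over the peak caller's local background, and its interval here is an exact Poisson 95% interval on the number of ChIP fragments at the summit (the pileup) with the background held fixed. It covers counting error in 1 library only. The folds ran from 5.17 at RRN3 to 24.3 at POLR1B, with a median of 10.9. In 4 genes (POLR1B, POLR1E, POLR1A and TCOF1) it was 10 or more, and 15.4% of all peaks reach it. The strongest peak was above the list's median fold of 6.40 and its upper quartile of 8.38 in 7 of 8 genes. For UBTF and POLR1A this peak was the best of several, and of the 6 genes with a single peak RRN3 was the one below both marks.

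Among the subunits of the enzyme, POLR1B and POLR1E had the highest signal of the set. POLR1B, the second largest subunit and part of the catalytic centre, had 1 peak at chr2:113299460-113300356. The summit pileup was 46 fragments (33.7 to 61.4) over a background of 0.937. The fold was 24.3 (17.9 to 32.2) and ranked 106 of the list by fold. Its summit was 595 bp downstream of the start, and the peak was 897 bp wide, wider than 99.5% of the list. The RefSeq table gives POLR1B a further start 429 bases inside the first on GRCh38.p14. POLR1E, a subunit found in RNA polymerase I and not in the other polymerases, had 1 peak at chr9:37485752-37486099 with its summit 53 bp upstream. Its pileup was 43 (31.1 to 57.9) over 1.32, a fold of 19.0 (13.8 to 25.4), rank 314 by fold. The intervals of POLR1B and POLR1E overlap, so the order of these genes is uncertain.

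POLR1A, the largest subunit, had peaks on both sides of its start. The upstream one at chr2:86333234-86333677 had its summit 84 bp before the start, with 29 fragments (19.4 to 41.6) over 1.32 and a fold of 12.9 (8.80 to 18.4). The downstream one at chr2:86332573-86333091 had its summit 322 bp inside the gene, with 23 fragments (14.6 to 34.5) over 0.787 and a fold of 13.4 (8.72 to 19.9). These peaks did not differ beyond counting error, and which is called stronger depends on the measure. PTCD3, which encodes a mitochondrial ribosome-associated protein, starts on the opposite strand 349 bases from POLR1A in RefSeq on GRCh38.p14, so signal in between cannot be assigned to either gene.

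POLR1C and POLR1D form a heterodimer that RNA polymerases I and III share. The POLR1C peak, at chr6:43484718-43485019, had its summit 81 bp downstream of the start. It held 30 fragments (20.2 to 42.8), rank 3 of the set by pileup, but over the highest background, 2.64 against 0.683 to 1.32 at the other 12 peaks. Its fold was therefore 8.52 (5.84 to 12), rank 7 of 8. The counting error of this background, itself a low value, was not estimated, so that rank is uncertain. POLR1C also shares its promoter region with a coding gene on the other strand, YIPF3, 163 bases away in the same table. Noncoding neighbours on the other strand are listed 76 bases from RRN3 (LOC100505915), 253 bases from a listed start of POLR1B (LOC105373562) and 520 bases from UBTF (ATXN7L3-AS1). Signal shared with any such neighbour cannot be told apart from the member's own. The POLR1D peak, at chr13:28195836-28196219, was the only one of the 8 strongest apart from that of UBTF with its summit over 1 kb from the start, 1065 bp downstream. It had 16 fragments (9.15 to 26.0) over 0.825 and a fold of 9.32 (5.56 to 14.8). RefSeq lists a second POLR1D start 1149 bases inside the first, and LNX2 on the other strand 214 bases before a listed POLR1D start. Both are on GRCh38.p14, where positions were not joined to the peak.

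RRN3, also known as TIF-IA, had the weakest strongest peak. It lay at chr16:15187969-15188287 across the start, with its summit 110 bp downstream, and had 11 fragments (5.49 to 19.7) over 1.32, a fold of 5.17 (2.80 to 8.92) and a −log10 q of 4.54. Only 23.1% of all peaks had a lower fold. RefSeq lists 4 RRN3 pseudogenes (RRN3P1 to RRN3P4), 3 of them on chromosome 16. How reads that fit several copies were handled is not given in the sources used here, and the part of this in the low value was not tested.

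UBTF, the factor that coats active ribosomal DNA, had the most peaks, 5 within 2803 bp. Their summits lay 331, 895, 1151, 1848 and 3134 bp downstream of the start, and none was upstream or across it. The folds in that order were 5.35, 4.75, 5.26, 7.23 and 9.41, on pileups of 8, 7, 8, 13 and 19 fragments. The strongest was thus the farthest from the start, at chr17:42295772-42296246, with a fold interval of 5.86 to 14.4. The 4 nearer ones were below it, but their intervals overlap its own. Because the 5 summits lie within 2803 bp, each of these peaks necessarily had the 4 others within 5 kb. In the whole list, 1.54% of peaks have at least 4 other summits that close. The 5 UBTF peaks belong to the same cluster and share this count, so the percentage is no test of enrichment at UBTF. The nearest gap between summits was 256 bp, and whether the 5 are separate sites of binding was not tested. The peak nearest the start, at chr17:42298558-42298699, was 142 bp wide, the smallest width in the list. How many peaks share that width was not counted. The next UBTF peak was 160 bp wide, and 18.7% of the list was narrower than that. The RefSeq table places another UBTF start 1207 bases inside the outer of its listed starts on GRCh38.p14.

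TCOF1 encodes treacle, a nucleolar protein that binds UBTF and RNA polymerase I. Variants in TCOF1, POLR1B, POLR1C and POLR1D are known causes of Treacher Collins syndrome. The TCOF1 peak, at chr5:149737036-149737842, was 807 bp wide and crossed the start, with the summit 541 bp downstream and near the far edge. It had 22 fragments (13.8 to 33.3) over 0.843 and a fold of 12.5 (8.02 to 18.6). With POLR1B and the downstream peak of POLR1A (519 bp), it was 1 of 3 among the 13 peaks wider than 500 bp, a width that 6.82% of all peaks exceed.

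**Figure D2:**
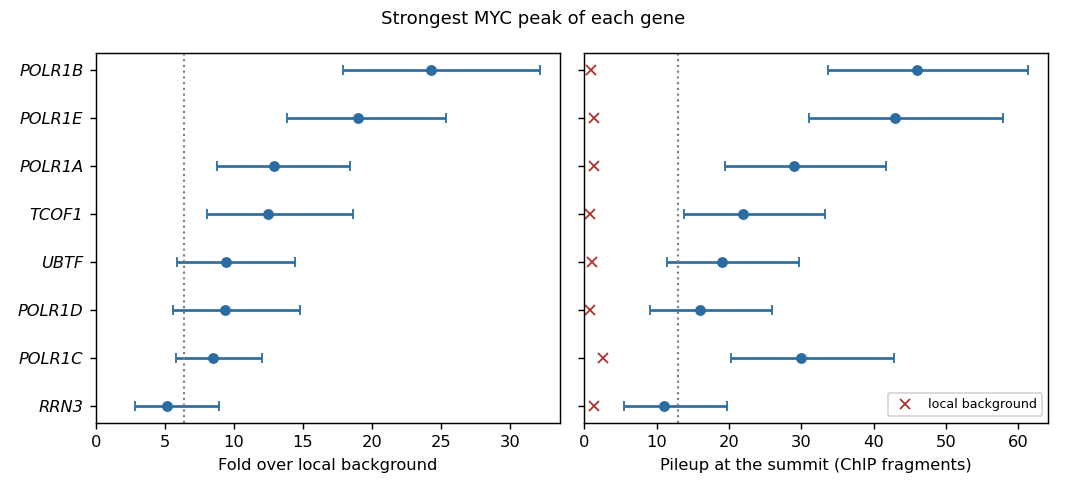
Points give the strongest peak of each gene with its exact Poisson 95% interval (counting error only): fold over the local background on the left and pileup in ChIP fragments on the right, with the local background as crosses and the median of all 17659 peaks as a dotted line (6.40 for fold, 13 for pileup). POLR1B and POLR1E stand highest on both scales, and POLR1C ranks 3 by pileup but 7 by fold over the highest background, 2.64. The intervals hold each background fixed.

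Most pairs of genes in the set had overlapping counting intervals. Such overlap does not by itself place a difference within counting error, and the pairs were not tested. By fold it ran POLR1B, POLR1E, POLR1A, TCOF1, UBTF, POLR1D, POLR1C and RRN3, and each of the 7 pairs of neighbours in this order had overlapping intervals. Over all 28 pairs of genes the intervals were apart in 6: POLR1B against UBTF, POLR1D, POLR1C and RRN3, and POLR1E against POLR1C and RRN3. These intervals leave out the counting error of the background, which was 2.64 at POLR1C and 1.32 at POLR1E. Whether the 6 pairs stay apart with it included was not tested. By pileup POLR1C moved up to rank 3 with 30 fragments, beside the 29 of POLR1A. The genes of the enzyme core were not uniformly above the accessory factors, since TCOF1 at 12.5 lay above POLR1C and POLR1D, with overlapping intervals. The strongest summits lay a median of 326 bp from the start, 6 downstream and 2 (POLR1A and POLR1E) upstream.

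**Figure D3:**
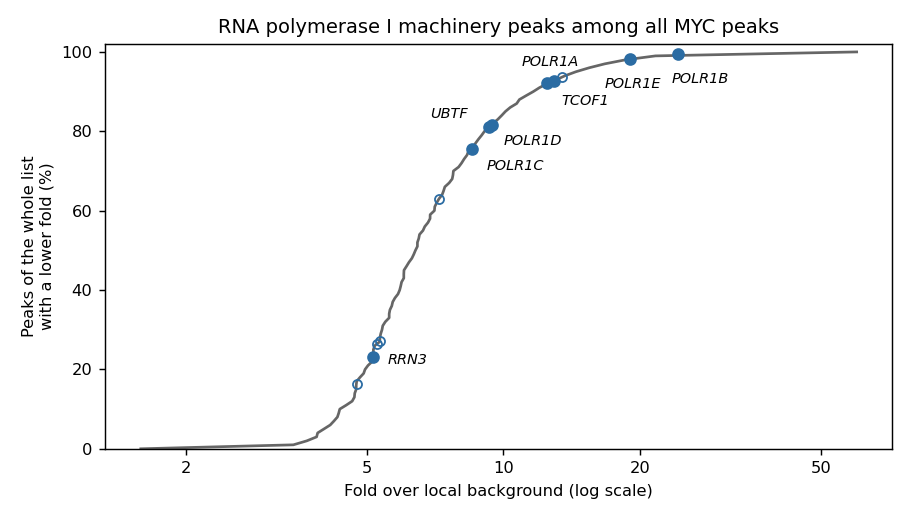
The grey line gives, for each fold on a log axis, the percentage of all 17659 MYC peaks with a lower fold; filled points are the strongest peak of each gene and open points the other peaks of UBTF and POLR1A. POLR1B and POLR1E sit above 99.4% and 98.2% of the list, TCOF1 and POLR1A above 92.1% and 92.7%, and RRN3 above 23.1%.

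No further summit lay between 5 and 10 kb of any of the 8 start sites. Between 5 and 100 kb there were 32 in all, from 0 at POLR1D to 7 at TCOF1. The median over the 8 start sites was 4.5, and a peak of the whole list had a median of 2 summits at the same distances from its own. For 5 genes (POLR1A, POLR1B, POLR1C, POLR1D and POLR1E) a peak within 5 kb of the start had the highest fold within 100 kb. For POLR1D this held by construction, since no other peak was in range. The share of all peaks that are the highest within 100 kb was not computed, so the count has no comparison. At POLR1B the next highest was 9.51, 58.3 kb downstream, and at POLR1E it was 9.34, 63.4 kb upstream. POLR1D stood alone, with the next summit 170.2 kb away. The other 3 genes had a higher peak nearby: a fold of 11.2 at 21.5 kb from UBTF, 15.5 at 92.0 kb from TCOF1, and 6.47 and 5.18 at 60.8 and 71.9 kb from RRN3. Each of these 4 folds lay within the counting interval of the gene's own strongest peak.

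**Figure D4:**
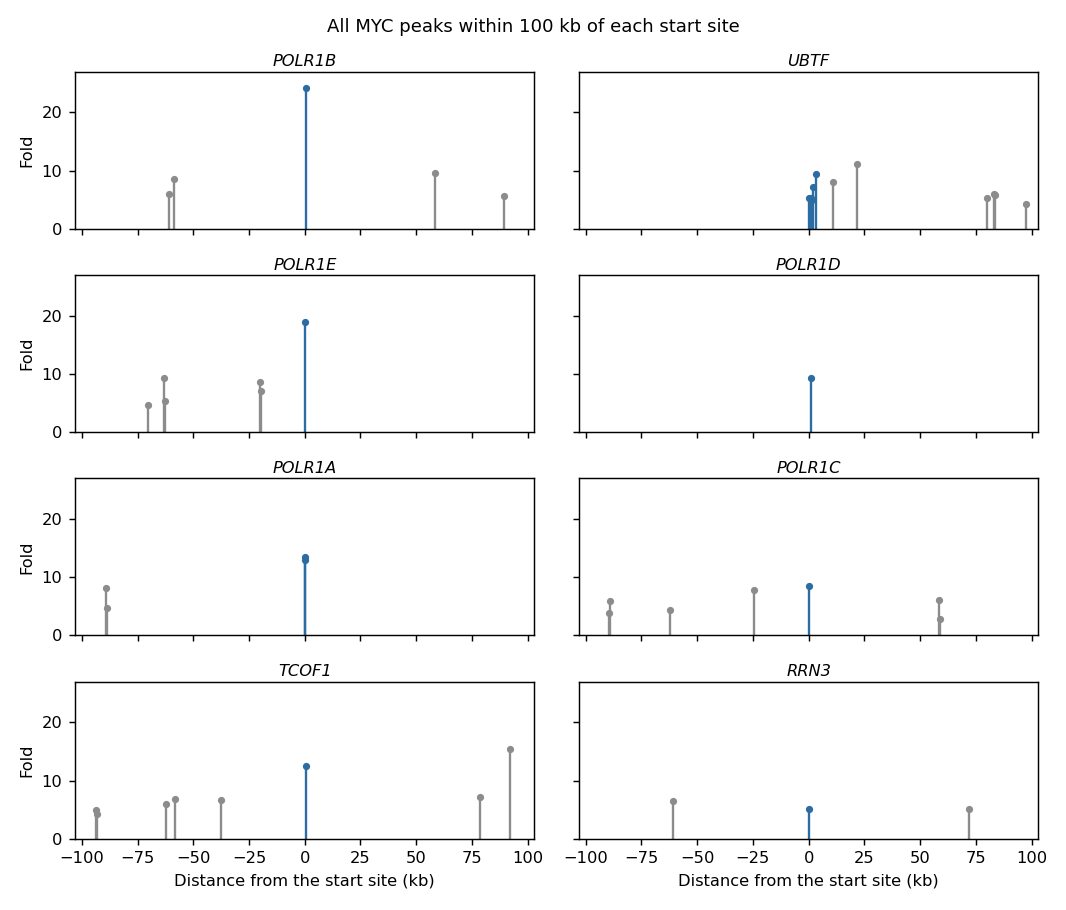
Each panel shows all MYC peaks within 100 kb of 1 start site, with the distance in kb (positive is downstream) on the x axis and the fold on the y axis; blue marks peaks within 5 kb and grey the others. A peak within 5 kb is the highest in the panels of POLR1A, POLR1B, POLR1C, POLR1D and POLR1E, and POLR1D has no other peak in its panel.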

How the data were processed

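The analysis used the authors' peak list of the MYC ChIP library, in narrowPeak layout on GRCh37. The submitters' processing notes name STAR 2.5.2a, SAMtools 1.3, Picard 2.7.1, MACS2 2.1.0 and bedtools, with no role or order. In all peaks the authors' deposited score is the whole part of 10 times the −log10 q. Their deposited fold is a ratio over the caller's local background, and their −log10 p and −log10 q come from the caller; the lowest −log10 q was 1.31. How the list was filtered is not given in the sources used here. Read depth is unknown, since the list gives no totals.

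From each fold and −log10 p, the whole pileup and the background were recovered from MACS2's definitions: the fold adds 1 to pileup and to background before dividing, and p is the Poisson tail above the pileup. The match to the deposited −log10 p was within 0.001 in 100% of peaks. In tests on 2896 simulated peaks the pileup was recovered for 100%. Those peaks were made with the same definitions, so this checks the calculation only, not whether the deposited values follow them. The highest backgrounds in the list were above the simulated range. Intervals are exact Poisson at 95% (scipy 1.17.1). They cover the counting error of the pileup only, with the background held fixed and no replicate. Fragments carry no molecular identifiers, and any amplification duplicates left in the pileup are not covered.

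Start sites on GRCh37 came with the definition of the gene set. Positions are 1-based. Strand came from the RefSeq promoter table, and for POLR1E and TCOF1 from general knowledge. All 8 genes are named. Neighbouring genes and promoter letters came from RefSeq (GRCh38.p14), which was not joined to the peaks. The genes and lists were chosen with earlier results of these data known. With 1 library per kind, no test between conditions was possible.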

Additional observations from a re-analysis of the deposited data

How the results depend on the processing

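Of 33 alternatives, 25 left a count within 1.5 times its value or the median fold within 6.94 to 16.5, the mean interval of its middle peaks, and 8 moved it. The number of genes with a peak was 7 with a 1 kb window (POLR1D lost). It was also 7 with only peaks at or above the list's median −log10 q (RRN3 lost), and 8 with a 10 kb window and with peak centres. Leaving out the 3 genes with a coding gene head to head within 1 kb (POLR1A, POLR1C and POLR1D) left 5 of 5 by construction. Genes reaching the fold limit numbered 7 at a fold of 8 and 2 at 15, against 4 at 10. The median distance of the strongest summit, 326 bp, depended most on the settings: 110 bp in a 1 kb window, which drops POLR1D and takes a nearer UBTF peak, 207 bp for peak centres, 541 bp for the more significant peaks and 541 bp without the head-to-head genes. The median fold stayed between 10.9 and 12.5. CACGTG was found in 0 genes also in the bases before the start alone, and any of the 3 E-box forms with fixed letters in 5. CACGCG before the start alone was in 4 of 6 genes, an alternative chosen after seeing the data, as was the comparison with windows of at least 44.7% G and C. The shares of all genes were not computed for the bases before the start alone or for any of the 3 forms, so these counts have no comparison. No replicate could be left out. No paired analysis was possible because there is 1 ChIP and 1 input library, and the input has no file of its own here. The list has no peak under 5 fragments, and whether depth or the calling threshold sets this was not tested.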

Other observations

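GL000220.1, an unplaced contig with ribosomal DNA, can be set beside the genes of the machinery. It held 6 peaks, and which of them lie on the ribosomal DNA was not tested. The 4 of them with backgrounds of 79.8 to 83.8 fragments had folds of 1.59 to 2.61, below the lowest fold at the 8 genes, 4.75 at UBTF. Their pileups of 134 to 210 fragments were above the 46 of POLR1B. The other 2, at 6980-7505 and 7601-8370 of the contig, had 73 and 49 fragments over backgrounds of 5.94 and 4.69. Their folds of 10.7 and 8.79 were within the range of the strongest peaks of the 8 genes. The 4 peaks with the high backgrounds start at 117832 or beyond. The number of ribosomal gene copies that feed this contig was not measured, so fold and pileup there are not on the same footing as at single-copy genes.

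The start sites of the set held more summits on the downstream than on the upstream side, 11 against 2, and 5 of the 11 belong to UBTF. The share of downstream summits at all gene starts was not computed. Of the 4 genes with 2 starts in the RefSeq table, UBTF, POLR1B and POLR1D had their strongest summit 3134, 595 and 1065 bp downstream. Their listed starts are 1207, 429 and 1149 bases apart. RRN3, whose starts are 63 bases apart, had it at 110 bp. POLR1A and POLR1C, with 1 listed start each, had it 84 bp upstream and 81 bp downstream. TCOF1 and POLR1E, with no entry in the table, had it 541 bp downstream and 53 bp upstream. Whether the summits lie at those inner starts was not tested, since the table is on another build.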
